A study of Mus musculus with 12 samples.

Results

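The neuropeptide precursor genes Hcrt, Pmch, Gal, Nts, Tac1, Sst, Vip, Adcyap1, Cck and Grp were examined as a group of lateral and other hypothalamic neuropeptides. They were found by matching these symbols in the deposited count table, which gave 10 of its 43280 gene rows. All 10 passed the count filter and were among the 13104 genes tested. The hypothalamus was taken from male C57/Bl6 pups at postnatal day 6, from 6 control animals and 6 exposed to modified maternal separation (MMS), with 1 library per pup. MMS consisted of daily spells away from the dam, in warmth, during which the pups were handled repeatedly. Controls had the same strain, sex and age, pups of a litter were shared out between the groups, and the labels give no further allele or agent for either. Libraries were made from the 3' end of mRNA, so that the reads from a molecule should depend little on its length. Levels were therefore compared between genes, as an approximation, since the reads have no molecular identifiers.

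Neuropeptides are cut from larger precursors, stored in dense-core vesicles and released to act on G protein-coupled receptors. Hcrt (orexin) and Pmch (melanin-concentrating hormone, MCH) are made by separate, intermingled neurons of the lateral hypothalamus that are known for their roles in arousal, sleep and feeding. The other peptides are made in several hypothalamic nuclei and elsewhere in the brain, among them the suprachiasmatic nucleus, the seat of the circadian clock, whose core neurons make Vip and Grp. In whole tissue, fewer cells of a type and less mRNA per cell cannot be told apart.

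Several peptide genes are known targets of cAMP signalling, and the cAMP response element was defined in the somatostatin promoter. The element and its shorter forms were therefore sought on both strands of the RefSeq promoters (GRCm38.p6, windows of 300 bases around each annotated start), of which 9 of the 10 genes had one searched. The palindrome TGACGTCA was present in 1.79% of 32851 windows and in 1 of the 9 genes, Sst. The form TGACGTC, which lies within the palindrome, was present in 3.21% of windows and in 3 genes, Sst, Vip and Adcyap1. The still shorter TGACG, which lies within both, was present in 20.8% of windows and in 7 genes, and was not found in these windows of Hcrt and Pmch. The percentages count windows, whereas a gene was counted for a match in any of its windows, and Adcyap1 had more than 1. The counts of genes and the shares of windows are therefore not like measures. The stretches around the longer matches are given 5' to 3' on the gene's own strand, with the match in capitals, because these are the members in which a long form was found.
Sst: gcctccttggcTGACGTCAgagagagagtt
Vip: gatcactactgTGACGTCtttcggggagcc
Adcyap1: gactaggatgcTGACGTCttttactgatac
The Sst stretch lies at chr16:23890874-23890903 on the minus strand, with the match ending 41 bases before the RefSeq start and inside the bounds that GENCODE M21 gives the gene. The Vip stretch lies at chr10:5639128-5639157 on the plus strand, with the match ending 73 bases before the start. The Adcyap1 stretch lies at chr17:93198915-93198944 on the plus strand, with the match ending 85 bases before the nearer of the starts searched. A match of letters is a description of the window and not a measured binding site.

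Controls had 3765759 to 6560620 counts per library and MMS pups 3218777 to 5344080. MMS 2 and MMS 4 stood away from the rest on the first principal component (30.4% of the variance), with scores of 57.8 and 46.3 where the other 10 had -14.4 to -3.04. Both had low sums of the 10 ependymal cilia markers, 15.8 and 35.5 CPM (counts relative to the scaled library total), where the other libraries had at least 77.3 CPM. Their sums of 8 pan-neuronal genes were 6231 and 6432 CPM against at least 7539 CPM elsewhere, but these genes did not move together. Tubb3, Map2, Rbfox3 and Syp were lower in both libraries than in any other. Stmn2 was higher in both (2027 and 2172 CPM against at most 2009 CPM), and Snap25, Syt1 and Elavl4 did neither in both. For many of the genes named, though not all, the fold change is also given without MMS 2 and MMS 4. Of 12 transcription factors of the developing hypothalamus 11 passed the filter, with sums of 218 to 337 CPM, and 0 of 7 pituitary markers passed. The sums of 6 thalamic markers varied from 193 to 719 CPM in controls and from 212 to 594 CPM in MMS libraries. The p-values treat pups as independent, since the labels do not tie a library to its litter.

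Pmch was the most abundant of the 10 mRNAs, with a mean of 431 CPM over the 12 libraries. Sst (221 CPM) and Tac1 (215 CPM) followed, and could not be ordered, since Sst was the higher in 8 of 12 libraries. Hcrt had a mean of 127 CPM and was below Tac1 in every library. Nts (91.9 CPM), Cck (88.4 CPM), Gal (72.5 CPM) and Adcyap1 (64.4 CPM) formed a middle tier in which neighbours changed places between libraries. Hcrt exceeded Nts in 9 of 12, Nts exceeded Cck in 6, Cck exceeded Gal in 8 and Gal exceeded Adcyap1 in 8. Grp (15.4 CPM) lay below Adcyap1 in all 12 libraries, and Vip (3.38 CPM) lay below Grp in all 12. Together the 10 genes took 838 CPM in Control 1, the lowest sum, and 1846 CPM in MMS 4, the highest.

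**Figure D1:**
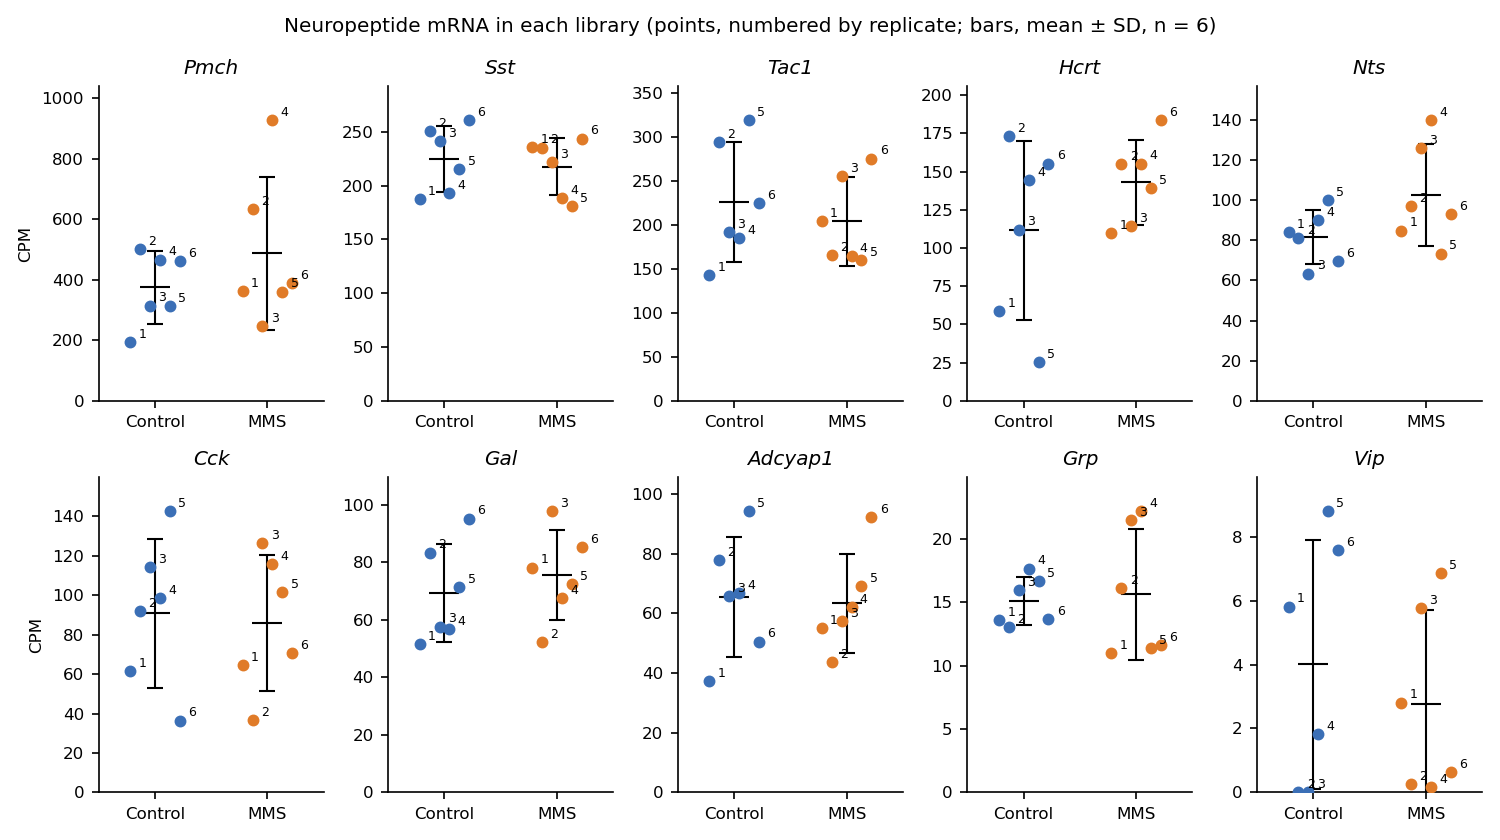
Level of each neuropeptide mRNA in CPM (linear axes from 0) in the 6 control and 6 MMS libraries. Points are libraries numbered by replicate, and bars are the mean ± SD. The groups overlap for all 10 genes, and they do not overlap for only 0.389% of all tested genes. Control 5 is low for Hcrt (25.1 CPM), MMS 4 is high for Pmch (929 CPM) and Vip is at 0 in Control 2 and Control 3.

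MMS was compared with control to ask whether neonatal separation had altered these transcripts. None of the 10 passed an adjusted p of 0.05 in edgeR's quasi-likelihood test, where 0% of all 13104 genes did. At an unadjusted p under 0.05 edgeR gave 1 of the 10, Nts, which is 10% of the members against 9.08% of all tested genes (4.68% higher and 4.4% lower in the MMS group). The fold changes of MMS over control were above 0 on the log2 scale for Pmch, Hcrt, Nts, Gal and Grp and below 0 for Sst, Adcyap1, Cck, Tac1 and Vip, with a median of 0.001 against 0.0009 over all tested genes. DESeq2, which called 7 genes among all tested, limma-voom, and limma-voom with quality weights each called 0 of the 10. The precision differed widely among them. The 95% interval of Sst allowed between 0.825 and 1.14 times the control level, whereas that of Vip ran from 0.153 to 3.01 times.

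**Figure D2:**
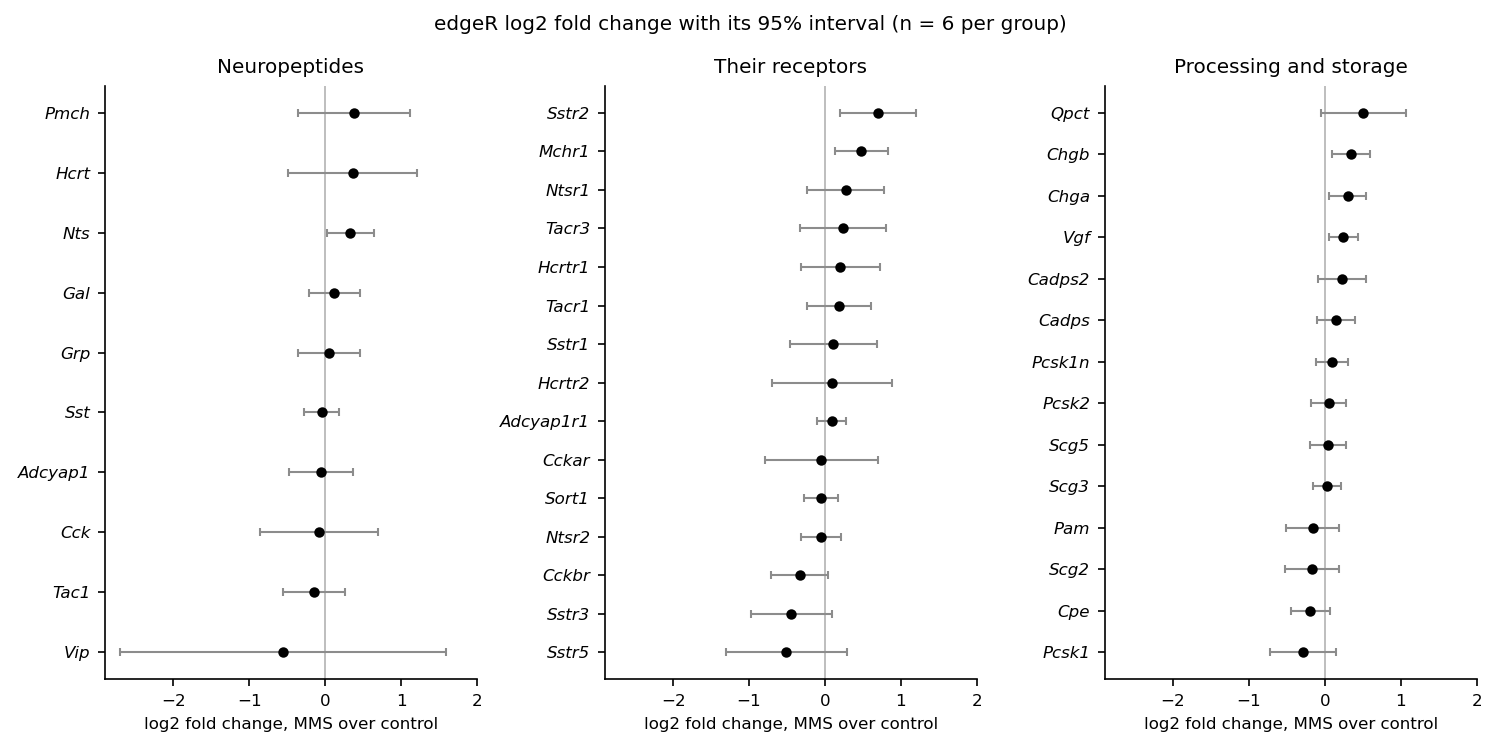
Log2 fold change of MMS over control from edgeR for the 10 neuropeptides, the 15 tested receptors of their peptides and 14 genes of peptide processing and storage. Points are estimates and bars their 95% intervals, with 6 libraries per group. The intervals exclude 0 for Nts, for the receptors Sstr2 and Mchr1 and for Chgb, Chga and Vgf, none of which passed after adjustment over all genes.

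Hcrt encodes the precursor of both orexins (chr11:100761069-100762931, minus strand in mm10, protein-coding). In controls its lowest level was 25.1 CPM, its median 128 and its highest 173, and in MMS libraries the corresponding values were 109.6, 147 and 184. The MMS libraries lay within a narrow band, and the controls were spread by Control 5 (25.1 CPM, 163 counts) and Control 1 (58.8 CPM). The SD of log2 CPM was 1.07 in controls and 0.28 in the MMS group, and the difference between these SDs was not tested. The means were 111 ± 58.4 CPM in controls and 143 ± 27.97 CPM in the MMS group (SD, n = 6 per group). The log2 fold change was 0.36 (SE 0.39, 95% interval -0.49 to 1.22, edgeR adjusted p = 0.770). Without Control 5 it was 0.16, and without Control 2 it was 0.53.

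Pmch encodes the MCH precursor (chr10:88091072-88092375, plus strand). Its level ran from 195 to 500.2 CPM in controls with a median of 389, and from 246 to 929 CPM in the MMS group with a median of 376. The medians were thus close, and MMS 4 (929 CPM) and MMS 2 (635 CPM) were the libraries above all controls. With means of 375 ± 119.6 and 487 ± 251.3 CPM (SD, n = 6 per group), the log2 fold change was 0.38 (SE 0.34, 95% interval -0.36 to 1.119, edgeR adjusted p = 0.725). It was 0.10 without MMS 4, and -0.14 without both MMS 2 and MMS 4. Pmch took 44.2% and 50.3% of the summed CPM of the 10 peptides in these libraries and 19.4% to 35.3% in the other 10. Parpbp overlaps Pmch on the opposite strand and had 0 to 8 counts per library, against at least 814 for Pmch, and whether reads were counted by strand is not given in the sources used here.

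Although both genes mark the lateral hypothalamus, their levels did not move together in every library. The ratio of Pmch to Hcrt was 12.4 in Control 5 and lay between 2.81 and 3.32 in the other controls. It ranged from 2.12 to 5.99 in the MMS group, where MMS 4 (5.99) and MMS 2 (4.09) were again the highest. Control 5 thus stood out by low Hcrt, with Pmch at 313 CPM, near the level of Control 3 (315 CPM). Lhx9, a transcription factor gene of orexin neurons that is also expressed in other parts of the diencephalon, was likewise lowest in Control 5, at 3.09 CPM, and highest in Control 1, at 38.1 CPM. Control 1 also had the highest thalamic sum (719 CPM) and Control 5 the lowest (193 CPM). The 8 genes reported in orexin or MCH neurons, Lhx9 included, summed to 369 CPM in Control 5. Controls ran from 288 to 385 CPM in this sum, so the set as a whole was not low there. The part of these markers in the Hcrt values was not tested. These 8 genes had 4 log2 fold changes above 0 and 4 below, 0 at an unadjusted p under 0.05 and a median of 0.02. Those with the largest were Lhx9 (0.36, SE 0.55) and Cartpt (-0.30, SE 0.15), a peptide gene expressed in MCH neurons. Lhx9 had 1.06 without Control 1, 0.15 without Control 5 and 0.11 without MMS 2 and MMS 4.

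**Figure D3:**
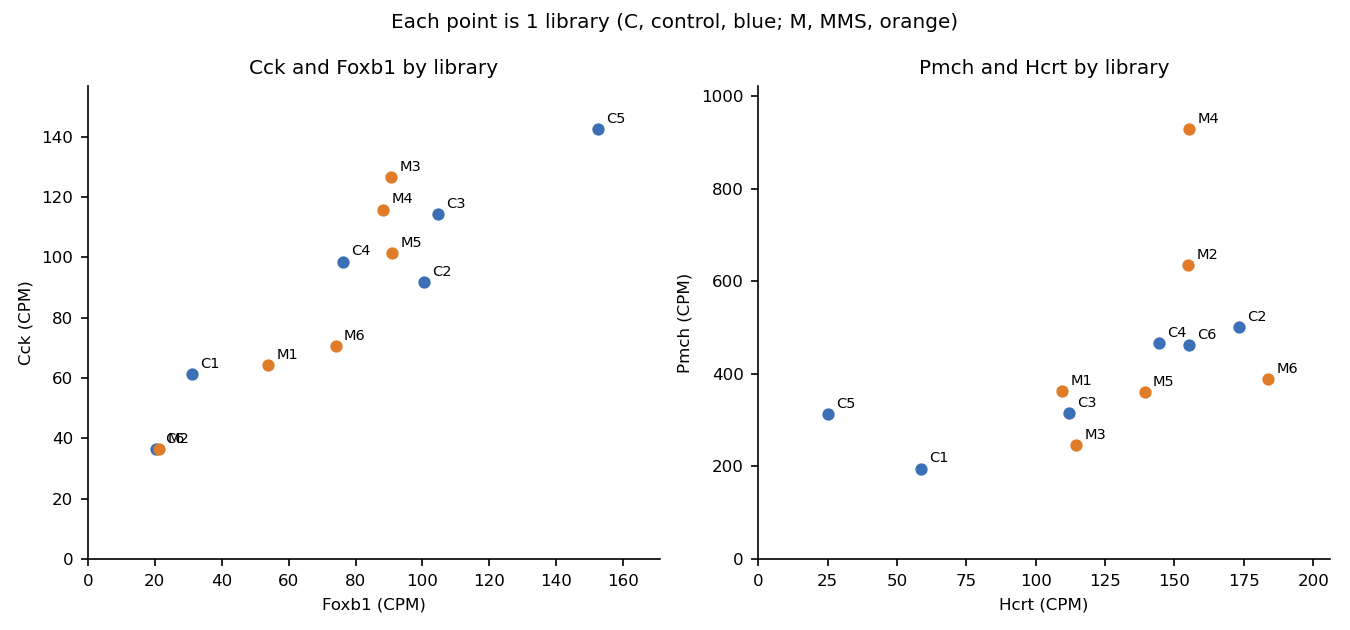
Left, Cck against Foxb1, and right, Pmch against Hcrt, both in CPM on linear axes from 0, with 1 point per library (C, control; M, MMS). Cck and Foxb1 were lowest in the same 4 libraries (C6, M2, C1 and M1), while C5 combines the lowest Hcrt (25.1 CPM) with 313 CPM of Pmch and M4 the highest Pmch (929 CPM) with 155 CPM of Hcrt.

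The genes whose log2 CPM was most like that of Hcrt were sought over the 10 libraries other than MMS 2 and MMS 4. They were Tm4sf1 (Pearson r = 0.94), Rny1 (r = 0.91) and Pef1 (r = 0.89), with 28 genes above 0.8. Over all 12 libraries the coefficients were 0.47, 0.90 and 0.53. For Pmch they were Nudc (r = 0.95), Tox2 (r = 0.91) and Hccs (r = 0.90), with 23 genes above 0.8. With MMS 2 and MMS 4 included Nudc and Tox2 gave -0.15 and -0.56, and Hccs 0.91. These are the highest of 13104 coefficients over few libraries and are given as descriptions.

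Nts encodes neurotensin and neuromedin N, made by lateral hypothalamic neurons distinct from those of orexin and MCH among other cells (chr10:102481756-102490486, minus strand). Controls ranged from 63.4 to 100.1 CPM with a median of 82.6, and MMS libraries from 73.3 to 139.9 CPM with a median of 95.02. MMS 4 (139.9 CPM) and MMS 3 (126 CPM) lay above every control, and 5 of 6 MMS libraries lay above the control median. The means were 81.4 ± 13.4 and 102 ± 25.4 CPM (SD, n = 6 per group), which gave 0.33 on the log2 scale (SE 0.15, 95% interval 0.02 to 0.64, unadjusted p = 0.0378, edgeR adjusted p = 0.543). Without MMS 2 and MMS 4 it was 0.21 and the unadjusted p in edgeR was no longer under 0.05. Leaving out single libraries gave between 0.22 and 0.42, and the same loss followed without Control 1, Control 2, Control 3, Control 6, MMS 3 or MMS 4. It also followed in limma-voom.

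Gal encodes galanin, an often inhibitory peptide found in many hypothalamic nuclei (chr19:3409915-3414544, minus strand). It ran from 51.7 through a median of 64.6 to 95.2 CPM in controls and from 52.4 through 75.3 to 97.8 CPM in the MMS group, and the ranges almost coincided. Its log2 fold change was 0.12 (SE 0.16, 95% interval -0.21 to 0.45, edgeR adjusted p = 0.810). Without MMS 2 and MMS 4 it was 0.27, and leaving out single libraries gave between 0.04 (without MMS 3) and 0.24 (without Control 6).

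Tac1 encodes substance P and neurokinin A, excitatory tachykinins (chr6:7554879-7565834, plus strand). In controls the lowest, median and highest levels were 143, 208 and 319.8 CPM, and in the MMS group 160.2, 185 and 276 CPM. All MMS libraries lay inside the control range. The log2 fold change was -0.15 (SE 0.19, 95% interval -0.56 to 0.26, edgeR adjusted p = 0.808). It was -0.02 without MMS 2 and MMS 4, -0.02 without Control 5 and -0.25 without MMS 6.

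Sst encodes somatostatin, which inhibits the release of growth hormone from the pituitary and acts as an inhibitory transmitter in the brain (chr16:23889573-23890958, minus strand). Controls spanned 187 to 261 CPM with a median of 228, and MMS libraries 181 to 244 CPM with a median of 229. It was the steadiest of the 10, with an SD within groups of 0.19 on the log2 scale. The difference on the log2 scale was -0.05 (SE 0.11, 95% interval -0.28 to 0.18, edgeR adjusted p = 0.900), and this interval was the narrowest of the 10.

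Vip encodes vasoactive intestinal peptide, through which core neurons of the suprachiasmatic nucleus keep one another in phase (chr10:5639218-5647617, plus strand). Its counts were 27, 0, 0, 8, 57 and 36 in Control 1 to 6 and 12, 1, 19, 1, 35 and 2 in MMS 1 to 6. The libraries fell into a set of 5 with 2 counts or fewer, of which 2 were controls and 3 MMS, and a set of 7 with at least 8 counts, of which 4 were controls and 3 MMS. A count of 0 allowed up to 0.815 CPM in Control 2 and 0.503 CPM in Control 3 (3 counts, for counting error only), whereas Control 5 reached 8.79 CPM. The spread was present in both groups, and the log2 fold change was -0.56 (SE 0.98, 95% interval -2.70 to 1.59, edgeR adjusted p = 0.867). It was 0.01 without MMS 2 and MMS 4, each of which had 1 Vip count, and lay between -1.13 (without MMS 5) and -0.13 (without Control 5) when single libraries were left out.

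Beside Vip, 5 of 7 suprachiasmatic genes passed the filter, with sums of 269.8 to 673 CPM in controls and 259.7 to 845 CPM in the MMS group. Avp, also made in other nuclei, made up a large part of these sums. Nms, a suprachiasmatic peptide, was low, with 0 to 14 counts per library. Its lowest levels were in Control 3, Control 4, MMS 2, Control 2 and MMS 6, of which all but Control 4 were among the 5 libraries with few Vip counts, while MMS 4 had 12 Nms counts and 1 Vip count. Six6, a transcription factor gene needed for that nucleus, was lowest in MMS 2 (3.76 CPM) and MMS 4 (5.85 CPM) and stood at 18.3 CPM in Control 3. Prok2, another peptide gene of the suprachiasmatic list, had 1 to 11 counts per library. It was low in Control 2, MMS 2 and MMS 4, but had 1.51 CPM in Control 3 and 2.25 CPM in MMS 6, near its highest (2.32 CPM). Avp was lowest in Control 3 (94.4 CPM) and low in Control 2 and MMS 4. It was also low in Control 5 (143 CPM), where Vip was highest, and stood at 294 CPM in MMS 6. Nms, Six6, Prok2 and Avp thus each shared part of the Vip pattern, with exceptions. Lhx1, another of the suprachiasmatic genes, was low in MMS 2 (27.4 CPM) and MMS 4 (34.4 CPM), as Vip was. It went the other way in controls, with 67.9 CPM in Control 2 and 71.6 CPM in Control 3, the libraries without Vip counts. In Control 6, where Vip was not low, Lhx1 had 32.7 CPM. Agrp, a peptide gene of the arcuate nucleus, had its lowest levels in MMS 2, MMS 4, MMS 6, Control 2 and Control 4 (0 to 3.21 CPM), of which all but Control 4 were among the 5 libraries with few Vip counts, while Control 3 had 29.0 CPM. Nms, Six6, Prok2, Avp, Lhx1 and Agrp were set beside Vip after their values were seen. The share of all tested genes with such overlaps is not given here, so these are descriptions. The part of tissue sampling in the Vip counts was not tested. The median log2 fold change of the suprachiasmatic genes was -0.18. Avp had 0.57 (SE 0.49), with 0.29 without MMS 3, 0.93 without Control 6 and 0.85 without MMS 2 and MMS 4. At an unadjusted p under 0.05 there was 1 of the 5, against 9.08% of all tested genes. This was Lhx1 (-0.50, SE 0.20, edgeR adjusted p = 0.543), which had -0.32 and was no longer under that limit without MMS 2 and MMS 4, nor without Control 5 (-0.40).

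Adcyap1 encodes PACAP, a close relative of Vip that also acts through the Vip receptors (chr17:93199017-93206537, plus strand). It ran from 37.2 to 94.3 CPM in controls with a median of 66.3, and from 43.8 to 92.4 CPM in the MMS group with a median of 59.9. Its log2 fold change was -0.05 (SE 0.20, 95% interval -0.48 to 0.37, edgeR adjusted p = 0.944). Unlike Vip it had at least 163 counts in every library.

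Grp encodes gastrin-releasing peptide (chr18:65872820-65886596, plus strand, overlapping an antisense gene, AC152076.4). The controls lay close together, from 13.0 to 17.6 CPM with a median of 14.8. The MMS libraries lay on both sides of them, with 3 below all controls (MMS 1, MMS 5 and MMS 6) and 2 above (MMS 3 and MMS 4), from 11.003 to 22.2 CPM with a median of 13.9. The SD of log2 CPM was 0.18 in controls and 0.46 in the MMS group, a difference that was not tested. The log2 fold change was 0.05 (SE 0.20, 95% interval -0.36 to 0.46, edgeR adjusted p = 0.944).

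Cck encodes cholecystokinin, a peptide co-released by many forebrain neurons (chr9:121489824-121495694, minus strand). Control levels ran from 36.4 to 143 CPM with a median of 95.2, and MMS levels from 36.5 to 127 CPM with a median of 86.0. The groups covered the same range, with a log2 fold change of -0.08 (SE 0.35, 95% interval -0.86 to 0.70, edgeR adjusted p = 0.947). Cck was lowest in Control 6, MMS 2, Control 1 and MMS 1, which were also the 4 libraries lowest in Foxb1, a transcription factor gene of the mammillary body, at 20.4, 21.2, 31.0 and 53.8 CPM. Control 5 was the highest for both, with 142.5 CPM of Cck and 153 CPM of Foxb1. The same 4 libraries were the lowest for 36 of all tested genes (0.275%), and Foxb1 was singled out after its values were seen.

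The 5 mammillary, subthalamic and ventral midbrain markers reported here were set beside Cck. Lmx1a and Foxa1 had 3 of their lowest 4 libraries in common with Cck, and Barhl1 and Lmx1b had 2. The share of all tested genes with 3 or 2 in common is not given here, so these overlaps are descriptions. The sum of the 5, of which Foxb1 was the largest part by its mean, ran from 39.6 to 244 CPM in controls and from 41.6 to 153 CPM in the MMS group. It was 103 CPM in MMS 3, close to the 97.6 CPM of MMS 1, although Cck was 127 CPM in MMS 3 and 64.4 CPM in MMS 1. All 5 had log2 fold changes below 0, with a median of -0.28 and 0 at an unadjusted p under 0.05. The largest were Lmx1a (-0.58, SE 0.47) and Lmx1b (-0.45, SE 0.32). The part of these markers in the Cck values was not tested.

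**Figure D4:**
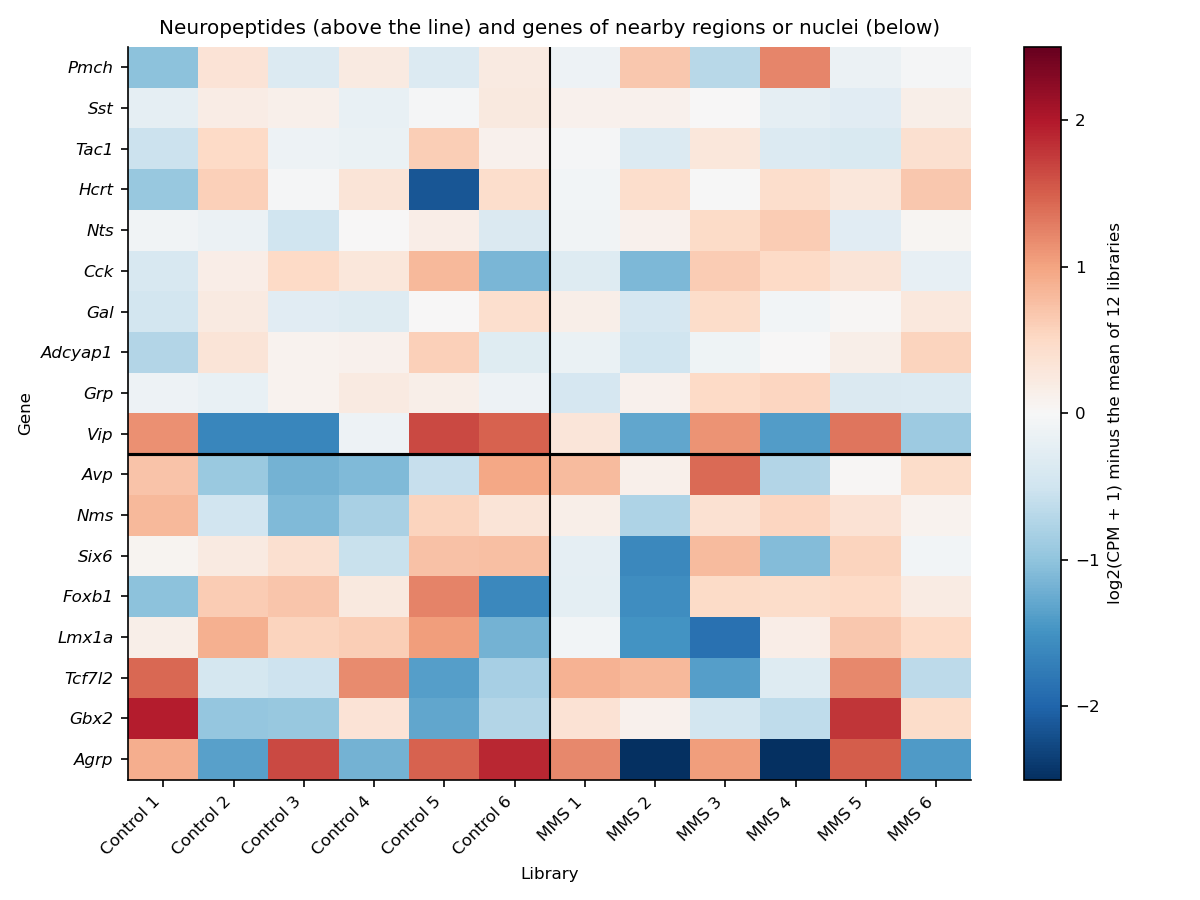
Log2(CPM + 1) of the 10 neuropeptides (above the line) and of 8 genes of nearby nuclei or regions (below the line), each minus its mean over the 12 libraries. Columns are libraries, red is above and blue below the gene's mean, and values past the ends of the colour scale take the end colour. Hcrt is low in Control 5, Vip is low in Control 2, Control 3, MMS 2 and MMS 4, and Agrp is at or near 0 in MMS 2 and MMS 4.

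The same libraries supplied many of the extreme values. Control 1 was lowest of the 12 for Pmch, Gal, Tac1 and Adcyap1. Control 5 was highest for Tac1, Vip, Adcyap1 and Cck and lowest for Hcrt. MMS 4 was highest for Pmch, Nts and Grp. The share of all tested genes with their extremes in these libraries is not given here, so this is a description. Tcf7l2, a marker of thalamus, was at 492 CPM in Control 1, its highest, and at 68.8 CPM in Control 5, its lowest, and its part in the peptide levels was not tested.

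Spread between animals was wide for several of the 10 genes relative to genes of like abundance. The SD of log2 CPM within groups was compared with that of the 500 tested genes nearest in mean level. Hcrt (SD 0.78) and Vip (1.83) exceeded all 500, Cck (0.68) exceeded 99.8% and Pmch (0.61) exceeded 99%. Adcyap1 (0.42) and Tac1 (0.39) stood at the 95.8 and 94.4 percentiles. Gal (0.33, percentile 89.6) and Nts (0.30, percentile 82.4) came next, and Grp (0.35, percentile 59.4) and Sst (0.19, percentile 56.4) were near the middle. Without MMS 2 and MMS 4 the SD was 0.87 for Hcrt, 0.62 for Cck, 0.45 for Pmch and 1.79 for Vip. For Hcrt this omission cannot probe the spread, which lay in the controls (SD 1.07, against 0.28 in the MMS group). The SDs in controls and in the MMS group were 0.70 and 0.67 for Cck, 0.52 and 0.68 for Pmch and 2.04 and 1.59 for Vip. The SD of either group alone was not compared with that of genes of like level.

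Counting error was small beside this spread, less so for Vip. At its mean count the counting error alone gives a coefficient of variation of 2.24% for Pmch, 4.24% for Hcrt, 4.87% for Cck and 24.6% for Vip. The biological coefficient of variation that edgeR fitted was 39.8% for Pmch, 45.8% for Hcrt and 41.9% for Cck, where the trend for genes of such level was 16.9%, 16.4% and 16.3%. For Vip it was 135% against a trend of 33.1%, and for Sst 14.9% against 16.6%.

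**Figure D5:**
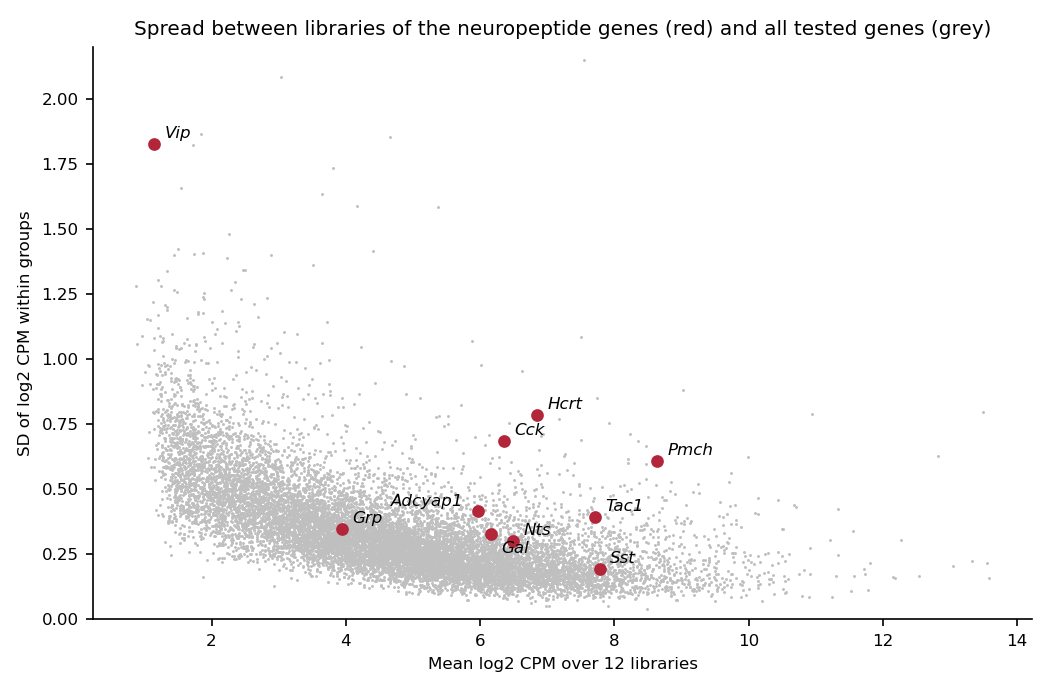
SD of log2 CPM within groups against mean log2 CPM over the 12 libraries for all 13104 tested genes (grey) and the 10 neuropeptides (red). Vip, Hcrt, Cck and Pmch lie above nearly all genes of like level, at SDs of 1.83, 0.78, 0.68 and 0.61, while Sst (0.19) and Grp (0.35) lie within the bulk.

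Of the receptors of these peptides 22 were in the table and 15 passed the filter. The receptors left out by the filter were low, among them the Vip receptors Vipr1 (21 counts over all libraries) and Vipr2 (126), the galanin receptors Galr1 (89) and Galr2 (8), and Grpr (103), the receptor of Grp. The most abundant was Adcyap1r1, the PACAP receptor, at 271 ± 9.71 CPM in controls and 289 ± 29.97 CPM in the MMS group (SD, n = 6 per group). Log2 fold changes were above 0 for 9 and below for 6, with a median of 0.10. At an unadjusted p under 0.05 there were 2 of 15 (13.3%, against 9.08% of all tested genes), both higher in the MMS group, and 0 passed the edgeR adjusted threshold.

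Those 2 were Sstr2 and Mchr1. Sstr2, a somatostatin receptor, was between 5.16 and 10.5 CPM in controls (median 7.04) and between 6.28 and 14.8 CPM in the MMS group (median 13.0), with 5 of 6 MMS libraries above every control. Its log2 fold change was 0.70 (SE 0.24, unadjusted p = 0.00881, edgeR adjusted p = 0.543), and 0.54 without MMS 2 and MMS 4. Mchr1, the receptor of MCH, was between 9.69 and 17.9 CPM in controls (median 13.1) and between 15.2 and 21.5 CPM in the MMS group (median 18.6), with 3 of 6 above every control. It had a log2 fold change of 0.48 (SE 0.17, unadjusted p = 0.00996, edgeR adjusted p = 0.543), and 0.39 without those libraries. Neither receptor was under an unadjusted p of 0.05 once they were left out. Among other somatostatin receptors, Sstr5 had -0.51 (SE 0.38, and -0.24 without those libraries) and Sstr3 -0.44 (SE 0.26), and Sstr4 had 0 counts. The orexin receptors, named for their role, had intervals that included 0, with 0.20 for Hcrtr1 (SE 0.25) and 0.10 for Hcrtr2 (SE 0.38). They had -0.15 and 0.06 without MMS 2 and MMS 4.

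All 14 genes of peptide processing and storage were tested, and 10 had log2 fold changes above 0 (median 0.07). The 3 at an unadjusted p under 0.05 (21.4%, against 9.08% of all tested genes) were higher in the MMS group, where 4.68% of all tested genes were. They were the granin genes Chgb (0.35, SE 0.12), Chga (0.30, SE 0.12) and Vgf (0.24, SE 0.09), each at an edgeR adjusted p of 0.543. Chga and Vgf were named after their values were seen, and had 0.21 and 0.25 without MMS 2 and MMS 4. Chgb ran from 187 to 255 CPM in controls (median 216) and from 216 to 323 CPM in the MMS group (median 278), with 3 MMS libraries above all controls, and its log2 fold change was 0.21 without MMS 2 and MMS 4. Without those libraries Chgb and Chga were no longer under an unadjusted p of 0.05 in edgeR, and Vgf was. The enzyme that forms pyroglutamate at peptide ends, encoded by Qpct, had 0.51 (SE 0.27), with 30.6 CPM in MMS 2 and 33.9 CPM in MMS 4 against at most 16.8 CPM elsewhere, and -0.12 without them. Of the convertases that cut the precursors, named for their role, Pcsk1 had -0.29 (SE 0.21, and -0.02 without MMS 2 and MMS 4) and Pcsk2 0.05 (SE 0.11).

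Among 24 other hypothalamic neuropeptide precursors 17 passed the filter, with 7 log2 fold changes above 0, 10 below and a median of -0.07. Unadjusted p-values under 0.05 were found for 1 higher and 1 lower (11.8%, against 9.08% of all tested genes). The higher was Pnoc, the nociceptin precursor, which was named after its values were seen. It lay between 53.0 and 70.6 CPM in controls and between 73.7 and 97.9 CPM in the MMS group, so that the groups did not overlap, as was so for 0.13% of all tested genes in this direction. Its log2 fold change of 0.48 (SE 0.11) had an unadjusted p of 0.000342 and an edgeR adjusted p of 0.375. It was 0.50 without MMS 2 and MMS 4, and 0.44 to 0.53 when single libraries were left out. The lower was Qrfp, a lateral hypothalamic peptide gene, at 5.76 ± 3.04 CPM in controls and 3.45 ± 1.39 CPM in the MMS group (SD, n = 6 per group; log2 fold change -0.79, SE 0.36, edgeR adjusted p = 0.543). Qrfp had -0.52 without MMS 2 and MMS 4 and -0.50 without Control 5, in both cases no longer under an unadjusted p of 0.05. It was also lost by leaving out Control 1, Control 6, MMS 1, MMS 2 or MMS 4 alone. Agrp had -0.70 (SE 0.91), and -0.11 without MMS 2 and MMS 4.

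Markers of neighbouring tissue were set beside these values. Of the hypothalamic transcription factors Tbx3 and Nr5a1 had the lowest log2 fold changes (-0.84 for both, SE 0.42 and 0.52, and -0.42 and -0.34 without MMS 2 and MMS 4). Of the thalamic markers Prkcd (0.46, SE 0.26) and Gbx2 (0.33, SE 0.75, and 0.67 without MMS 2 and MMS 4) had the highest. Sums of the 8 telencephalic markers were 88.1 to 113 CPM in controls and 74.3 to 125 CPM in the MMS group, with Neurod2 at -0.98 (SE 0.52) and Neurod6 at -0.81 (SE 0.47). All 7 tested ependymal markers had values below 0 (median -0.78), among them Hydin (-1.23, SE 0.45) and Ak7 (-0.86, SE 0.49). Hydin had -0.79 and Ak7 -0.38 without MMS 2 and MMS 4, where these markers were low. Ttr, the main transcript of choroid plexus, was at 1735 CPM in Control 3 and gave -6.58 (SE 2.14), or -1.63 without that library, while Kl gave -0.18 (SE 0.40). Of the pan-neuronal genes, Tubb3 had -0.49 (SE 0.21) and Snap25 0.13 (SE 0.11). Without MMS 2 and MMS 4, with 1280 and 1307 CPM of Tubb3 against at least 2069 CPM elsewhere, they had -0.20 and 0.03. In edgeR 0 of these passed the adjusted threshold, and their part in the peptide levels was not tested.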

How the data were processed

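The authors prepared QuantSeq 3' mRNA libraries from hypothalamus, sequenced them on the Ion Proton and aligned the reads to mm10 within Torrent Suite. They deposited raw counts per gene, 1 column per library, without normalization or pooling. How reads were counted, by which annotation and whether by strand, is not given in the sources used here. These 10 genes and the gene lists were chosen with earlier results of these data known.

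Libraries were grouped by their titles. The 30 pairs of libraries within groups differed by more than sampling noise (chi-square per degree of freedom 4.04 to 31.5), so each was counted as a sample. Counts were tested with edgeR 4.0.16 (R 4.3.3): robust quasi-likelihood fit, TMM scaling, default filter (minimum count 10, minimum total 15), two-sided, Benjamini-Hochberg adjustment over all 13104 genes, threshold 0.05. CPM used the same scaling, and log2 CPM a prior count of 2. SEs were the log2 fold change over the root of F, and 95% intervals used the total degrees of freedom. Alternatives were DESeq2 1.42.0, limma-voom (limma 3.58.1) with and without quality weights, RLE and upper quartile scaling, other count filters, a replicate block, and the omission of libraries. Tests were checked on simulated counts with the same dispersion for every gene and no outlying libraries. That check does not cover genes as spread as Vip, Hcrt, Cck and Pmch.

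All 10 members were named, and of each other list the 2 genes (of receptors the 4) whose change was largest in size, given a mean count of 10 or more, in addition to any past the threshold. Genes outside this rule were named for their role or level, or after their values were seen, as stated beside them. Galr3 was not analysed here, and 1 gene of the mammillary list is not reported here, so that list's values are without it. Positions are from GENCODE M21 (mm10) and promoter sequence from RefSeq (GRCm38.p6). Libraries held 3218777 to 6560620 counts, and counting errors were taken from each gene's mean count. Reads have no molecular identifiers, so floors cover counting error only.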

Additional observations from a re-analysis of the deposited data

How the results depend on the processing

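The 10 neuropeptides were refitted under 21 settings, 12 of which left out 1 library, and 0 of those tested passed the adjusted threshold in each. All 10 were tested in each but 1, where a mean of at least 50 counts left out Vip. Among all genes 0 passed in edgeR, against 7 in DESeq2, 1 with no count filter, 1 with the replicate block, 5 without MMS 2 and MMS 4, and 0 to 1 when single libraries were left out. At an unadjusted p under 0.05 the count of members was 1 (Nts) in edgeR and 0 in limma-voom, in limma-voom with quality weights, with the replicate block and without MMS 2 and MMS 4, and it was 0 to 1 when single libraries were left out. Of 209 refitted log2 fold changes of the members 192 kept their sign and 17 did not. Without MMS 2 and MMS 4 the value was -0.14 for Pmch, 0.013 for Vip, 0.061 for Adcyap1, -0.14 for Grp and, among the other genes, -0.12 for Qpct. With quality weights it was 0.48 for Vip, 0.035 for Adcyap1 and -0.12 for Grp, and in limma-voom -0.0062 for Grp. Omission of single libraries gave -0.18 to 0.093 for Adcyap1, -0.095 to 0.011 for Sst, -0.24 to 0.10 for Cck, -0.080 to 0.15 for Grp, -0.27 to 1.45 for Gbx2 and -0.34 to 0.0031 for Kl. The cause of these shifts was not tested. Whether replicate numbers pair littermates is not known. Deviations of same-numbered libraries correlated at -0.05 to 0.12, and 3 of 12 correlated best with their own number. This cannot decide the question, since littermates need not resemble one another in these deviations. With the replicate block the log2 fold change was 0.55 for Hcrt, 0.31 for Pmch and 0.31 for Nts. Vip had the fewest counts of the 10, with 0 to 57 per library. It had 0 in Control 3, a library of 5889740 counts, and 19 in MMS 3, a library of 3384141.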
